A study of Mus musculus with 28 samples.

Results

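Hedgehog signaling between the follicle and the ovarian stroma was followed through 8 genes in juvenile mouse ovaries: the ligand genes Ihh and Dhh, the receptor gene Ptch1, the signal transducer gene Smo, the transcription factor genes Gli1, Gli2 and Gli3, and the decoy receptor gene Hhip. The genes were chosen by name; no measured value enters the rule, although earlier results of these data were known. All 8 were found among the 44674 genes of the bulk RNA-seq table, where they were among 26790 genes tested, and among the 31053 genes of the single-cell tables. The bulk RNA-seq data were 24 libraries, 1 for the paired ovaries of each female aged 7 to 9 days, in 4 groups of 6: wild-type (WT) or Chek2-/- females that received 0.5 Gy of gamma irradiation (IR) or a sham treatment (nonIR). The single-cell data were 4 libraries, 1 for each of the same conditions, each from the pooled ovaries of 4 females aged 7 days. All ovaries were collected 6 hours after treatment. The paper lists C57BL/6J mice among those obtained, and does not give the background of the Chek2-/- line. Chek2-/- mice carried the Chek2tm1b(EUCOMM)Hmgu allele in every cell, so an effect of CHEK2 in granulosa cells cannot be told apart from one in the stroma. The paper does not say whether WT and Chek2-/- females were littermates. A difference between genotypes therefore cannot be told apart from one of background or litter.

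Hedgehog ligands are secreted proteins. Without ligand, the receptor PTCH1 holds the membrane protein SMO inactive, and the GLI proteins are processed into repressors or held in the cytoplasm; ligand binding to PTCH1 frees SMO, and GLI proteins then switch on target genes. Ptch1, Gli1 and Hhip are themselves textbook target genes, so their transcripts are read as a measure of signaling, and PTCH1 and HHIP also limit it by binding ligand. In the ovary, granulosa cells, which surround the oocyte, are the known source of Indian and Desert hedgehog (the products of Ihh and Dhh), and the mesenchymal cells around the follicle, from which the steroid-producing theca arises, are the known responders. CHEK2 is a kinase that passes on the DNA damage signal.

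The members lie on 6 chromosomes, and all are protein-coding genes. Coordinates are those of GRCm38 in the GENCODE annotation. Ihh (ENSMUSG00000006538) lies at chr1:74945315-74951672 on the minus strand, and Dhh (ENSMUSG00000023000) at chr15:98891152-98898540 on the minus strand. Ptch1 (ENSMUSG00000021466) lies at chr13:63508328-63573598, minus strand, and Smo (ENSMUSG00000001761) at chr6:29735503-29761365, plus strand. Gli1 (ENSMUSG00000025407) lies at chr10:127329882-127341974, minus strand, Gli2 (ENSMUSG00000048402) at chr1:118834132-119053619, minus strand, and Gli3 (ENSMUSG00000021318) at chr13:15463235-15730026, plus strand. Hhip (ENSMUSG00000064325) lies at chr8:79965851-80058006, minus strand.

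Dhh and Hhip had the most one-sided levels between granulosa-like and fibroblast-like cells, in opposite directions, so the 250 bases before the RefSeq start of each are shown, 5′ to 3′ on the gene's own strand, in GRCm38.p6 (Dhh chr15:98898541-98898790 and Hhip chr8:80058009-80058258, both minus strand).
Dhh: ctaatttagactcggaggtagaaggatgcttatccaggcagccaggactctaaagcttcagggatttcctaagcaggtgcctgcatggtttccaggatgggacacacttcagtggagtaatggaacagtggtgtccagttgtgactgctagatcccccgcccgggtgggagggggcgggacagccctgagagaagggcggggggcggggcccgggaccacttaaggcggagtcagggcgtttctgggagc
Hhip: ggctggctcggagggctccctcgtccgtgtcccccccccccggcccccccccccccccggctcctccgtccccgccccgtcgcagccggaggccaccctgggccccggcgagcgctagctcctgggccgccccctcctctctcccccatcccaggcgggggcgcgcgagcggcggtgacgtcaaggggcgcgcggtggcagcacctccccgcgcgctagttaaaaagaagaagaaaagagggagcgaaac
The Dhh sequence was 59.6% G or C with 9 CpG dinucleotides, against 76% and 28 for Hhip, and the 7 members with a RefSeq window (all except Gli1) ranged from 59.6% to 78.4% (Ptch1). The core letters bound by GLI proteins, GACCACCCA, were searched on both strands (reverse complement TGGGTGGTC) in the windows from 250 bases before to 50 bases after each start. An exact match was found in 83 of 32851 windows (0.253%), and a match with at most 1 mismatch in 2214 (6.74%). None of the 7 member windows held either.

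The labels were checked first. Chek2 was between 18.5 and 24.6 CPM (counts scaled to 1 common library total with TMM factors) in the WT libraries and between 2.88 and 4.53 CPM in the Chek2-/- libraries, and the nonIR genotypes differed by -2.58 on the log2 scale (SE 0.10, adjusted p = 7.45e-15, edgeR quasi-likelihood test). The 5 damage response genes Ccng1, Cdkn1a, Mdm2, Eda2r and Bbc3 all rose with IR in WT ovaries, by 1.33 to 2.03 on the log2 scale, and 2 of them passed the test in Chek2-/- ovaries. Bulk totals ran from 17825167 to 32605747 counts per library. Replicate 6 of both Chek2-/- groups stood apart from the other libraries: its mean correlation with the rest of its group was 0.959 (nonIR) and 0.964 (IR), against 0.980 to 0.984 for the other Chek2-/- libraries. The summed level of 8 granulosa markers was 1200 and 1196 CPM in these 2 libraries and 1720 to 2182 CPM in the other Chek2-/- libraries, and the summed level of 10 oocyte markers was 3471 and 3965 CPM against 5256 to 6341 CPM. The tests of the members and of the genes called below were therefore also computed without this pair. Summed hemoglobin and other erythroid markers were 10445 CPM in Chek2-/- nonIR replicate 5 and 7047 CPM in Chek2-/- IR replicate 2. They were at most 926 CPM in the WT libraries.

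The single-cell libraries held 9277, 9779, 8697 and 8771 cells after filtering and removal of called doublets, in the order WT nonIR, WT IR, Chek2-/- nonIR and Chek2-/- IR, which is kept below. Their median depth was 13908, 14476, 15527 and 17135 UMIs (unique molecular identifiers, each standing for 1 captured RNA molecule) per cell, and any pair of libraries shared at most 36 cell barcodes. Of 18 clusters, 4 were granulosa-like (13298 cells) and 4 were fibroblast-like (18505 cells), by markers that did not include a Hedgehog gene. The granulosa-like clusters held at least 7 of 8 granulosa markers and no fibroblast marker, and the fibroblast-like clusters held 7 of 7 fibroblast markers and no granulosa marker. A perivascular smooth muscle-like cluster (1288 cells) also held all 7 fibroblast markers. An erythroid-like cluster of 156 cells held 7 of the granulosa and 6 of the fibroblast markers, so its levels are plotted but not used in the comparisons.

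Both ligand transcripts were highest in granulosa-like cells, and the transcripts of the targets Ptch1, Gli1 and Hhip were highest in fibroblast-like or perivascular smooth muscle-like cells. Dhh stood at 0.464, 0.446, 0.500 and 0.487 UMIs per 10000 in granulosa-like cells of the 4 libraries, and at 0.00767, 0.00963, 0.0107 and 0.00980 in fibroblast-like cells. Ihh stood at 0.115, 0.0795, 0.178 and 0.241 UMIs per 10000 in granulosa-like cells and at 0.00180, 0.00241, 0.00503 and 0.00548 in fibroblast-like cells. No library of one class reached into the range of the other. The median ratio of granulosa-like to fibroblast-like level over the 4 libraries was 47.9 for Dhh (range 45.9 to 59.9) and 39.1 for Ihh (range 32.0 to 61.2). For scale, Amh, the anti-Müllerian hormone gene and a granulosa marker, had a median ratio of 80.4. Markers of other classes were also found in both: the oocyte marker Gdf9 had 1160 UMIs in granulosa-like and 1500 in fibroblast-like cells. The erythroid marker Hba-a1 had 4261 and 4352. RNA from other cells may add to the low levels of a class, and its part in these ratios was not tested.

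Dhh transcripts were found in 54.2% of granulosa-like cells (95% exact interval 53.3 to 55.0%, counting error only), against 1.34% of fibroblast-like and 6.00% of endothelial-like cells. The median depths of these classes were 20939.5, 12021 and 12086 UMIs per cell. After each cell was thinned to 3000 UMIs, the shares were 12.7%, 0.278% and 2.04%. Ihh transcripts were found in 18.9% of granulosa-like cells and 0.524% of fibroblast-like cells (3.79% and 0.0653% thinned), and in 0 of 137 macrophage-like cells, which allows a share of cells with a UMI of up to 2.66% (upper end of the 95% exact interval) and sets no limit on cells that express the gene. Both ligand transcripts were found together in 11.8, 7.95, 15.7 and 20.4% of granulosa-like cells, against 8.66, 5.37, 11.4 and 16.5% from the product of their shares. Cells differ in depth, and the granulosa-like clusters differ in the level of both ligands (below). The part of either in this gap was not tested. In the next named classes after granulosa-like cells, Dhh averaged 0.0577 (macrophage-like) and 0.0422 (endothelial-like) UMIs per 10000 with overlapping ranges, and Ihh was at most 0.00646 on average in any of them. The 3 unnamed clusters (42, 124 and 31 cells) held 7, 13 and 7 Dhh UMIs and 0, 2 and 0 Ihh UMIs. Their pooled Dhh levels were 0.211 (95% interval 0.0848 to 0.435), 0.104 (0.0552 to 0.177) and 0.176 (0.0706 to 0.362) UMIs per 10000. All 3 intervals lay above the pooled endothelial-like one (0.0326 to 0.0540) and below the granulosa-like one (0.467 to 0.482). They overlapped the macrophage-like one (0.0381 to 0.122), so that order was not settled. The Ihh counts were too few to place these clusters.

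**Figure D1:**
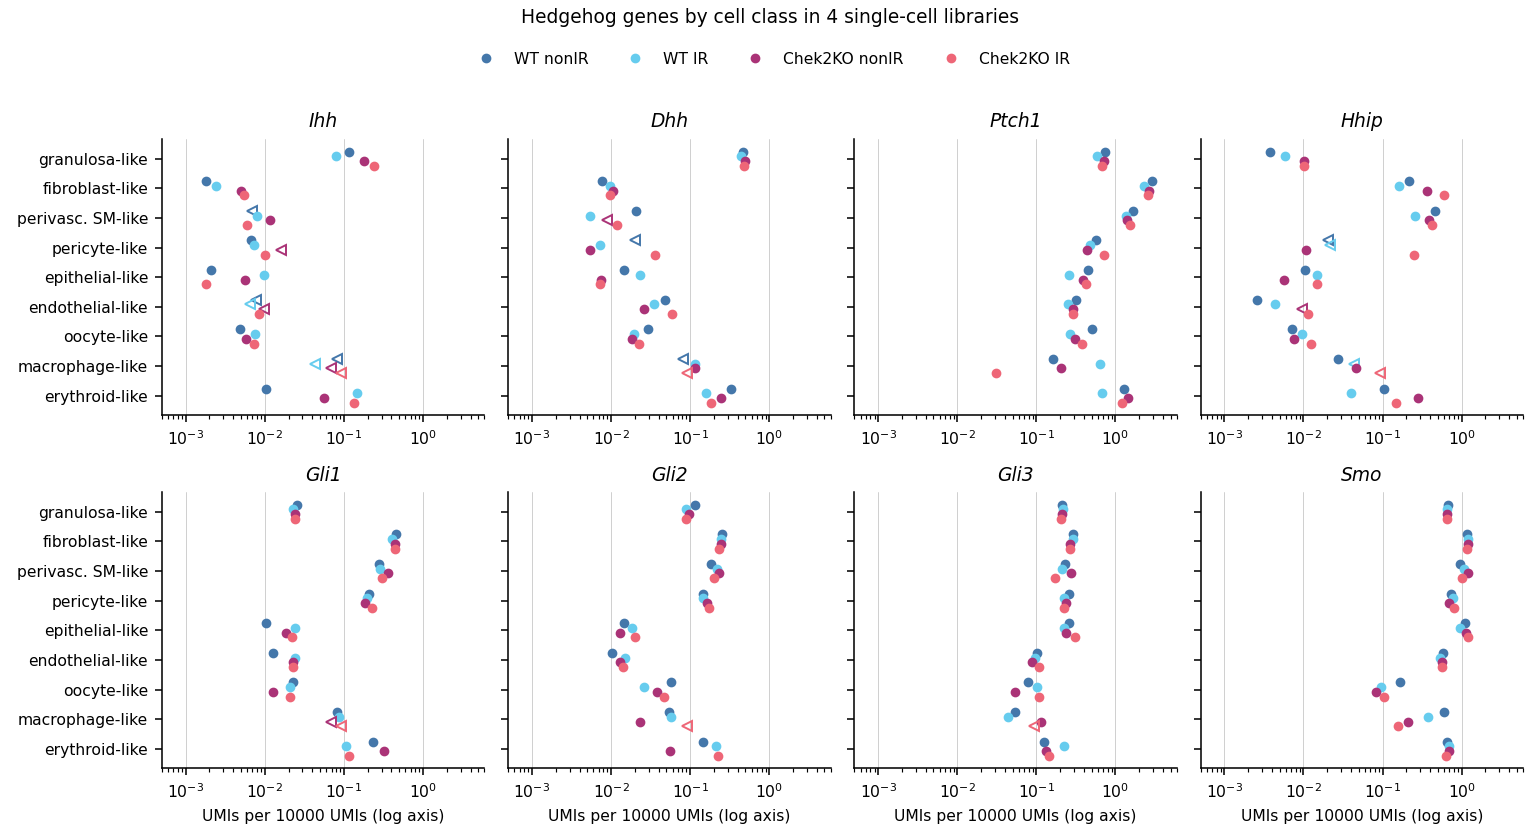
UMIs per 10000 (log axis) of each member in 9 cell classes, 1 dot per single-cell library; an open triangle pointing left marks a library with no UMI, drawn at the level of 3 counts. Dhh and Ihh are highest in granulosa-like cells, with class means of 0.474 and 0.153, while Ptch1 and Gli1 are highest in fibroblast-like cells, with means of 2.60 and 0.441.

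Ptch1, the receptor gene, stood at 2.89, 2.29, 2.67 and 2.58 UMIs per 10000 in fibroblast-like cells and at 0.738, 0.587, 0.722 and 0.679 in granulosa-like cells. Its fibroblast-like level was 3.69 to 3.92 times the granulosa-like level over the 4 libraries. Perivascular smooth muscle-like cells lay between the classes at a mean of 1.49, with no overlap with the fibroblast-like range. In fibroblast-like cells 74.1% of cells held a Ptch1 UMI, and 74.7% of the 69770 UMIs came from the 5359 cells with at least 5. The share in granulosa-like cells was 68.0%, and in endothelial-like cells 33.9%; thinned to 3000 UMIs, the 3 shares were 42.4%, 19.0% and 7.08%.

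Smo, which carries the signal across the membrane, was found at similar levels in 3 classes. It averaged 1.18 UMIs per 10000 in fibroblast-like cells, 1.10 in epithelial-like cells and 1.06 in perivascular smooth muscle-like cells, with overlapping ranges. Granulosa-like cells stood at 0.659 and oocyte-like cells at 0.113. The granulosa-like to fibroblast-like ratio of Smo was 0.556 (range 0.545 to 0.579).

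The 3 GLI genes differed in how far they favored the stroma. Gli1, the GLI gene that is itself switched on by the pathway, stood at 0.461, 0.411, 0.449 and 0.443 UMIs per 10000 in fibroblast-like cells and at 0.0256, 0.0230, 0.0244 and 0.0239 in granulosa-like cells, which was 17.8- to 18.5-fold lower. Its granulosa-like mean of 0.0242 had a range that overlapped those of endothelial-like (0.0205) and epithelial-like cells (0.0189) and lay above that of oocyte-like cells (0.0192). Likewise 5.16% of granulosa-like and 4.04% of endothelial-like cells held a Gli1 UMI (0.670% and 0.681% thinned), so after thinning the share over the whole granulosa-like class was no higher than the endothelial-like share. The granulosa-like clusters were not alike in this: cluster 1 (below) held 0.0315 to 0.0390 UMIs per 10000, above the endothelial-like range of 0.0129 to 0.0239 in all 4 libraries, and cluster 4 held 0.0112 to 0.0153. Gli2, the main activating GLI gene, averaged 0.245 in fibroblast-like cells, 0.208 in perivascular smooth muscle-like cells with overlapping ranges, and 0.0979 in granulosa-like cells, a ratio of 0.388 (range 0.369 to 0.450). Gli3, best known as the main GLI repressor, averaged 0.279 in fibroblast-like and 0.212 in granulosa-like cells, and its ranges overlapped from each class to the next across 5 classes. Its ratio was 0.756 (range 0.727 to 0.798).

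Hhip, the membrane-bound decoy for Hedgehog ligands, averaged 0.382 UMIs per 10000 in perivascular smooth muscle-like cells and 0.334 in fibroblast-like cells. In granulosa-like cells it averaged 0.00754, and in endothelial-like cells 0.00456 with an overlapping range, and the fibroblast-like level was 55.8, 27.3, 35.8 and 57.0 times the granulosa-like level in the 4 libraries. With called doublets kept, the granulosa-like to fibroblast-like ratio moved from 0.0229 to 0.0766 for Hhip and from 0.0551 to 0.108 for Gli1. Fibroblast-like Hhip was held by few cells: 9013 UMIs lay in 2620 cells, or 14.2% of the class, with 3.44 UMIs per cell that had any. The 569 cells with at least 5 UMIs held 59.9% of them, and 1 cell held 57. By contrast, Gli1 had 1.54 UMIs per fibroblast-like cell that had any, and cells with at least 5 held 5.50%. Pericyte-like cells held 51 Hhip UMIs, 49 of them in the Chek2-/- IR library.

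Over both classes together 15700 genes reached 100 UMIs; of these, 49.1% were higher in granulosa-like cells in all 4 libraries and 34.6% were lower in all 4. Of the members, 2 (Dhh and Ihh) were higher in all 4 and 6 were lower in all 4. Only 62 of the 15700 genes (0.395%) had a ratio as high as that of Dhh and 127 (0.809%) one as high as that of Ihh. At the other end, 49 genes (0.312%) had a ratio as low as that of Hhip and 349 (2.22%) one as low as that of Gli1. With 1 library per condition, the 4 libraries are not replicates of a condition, and these ratios carry no test.

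The granulosa-like clusters differed in ligand transcript. Dhh was highest in the cluster led by Amh (cluster 2, 5448 cells), at 0.647, 0.681, 0.698 and 0.618 UMIs per 10000, and lowest in cluster 4 (4001 cells), with Igfbp2 among its leading genes, at 0.233, 0.223, 0.230 and 0.240. Ihh was also highest in cluster 2, at 0.167, 0.118, 0.278 and 0.324, next in cluster 1 (2835 cells), also led by Amh, at 0.114, 0.104, 0.191 and 0.257, and at most 0.0593 in clusters 3 and 4. Cluster 1 held dividing cells: 11 genes of DNA replication and mitosis summed to between 28.7 and 30.4 UMIs per 10000 there and to at most 8.14 in the other granulosa-like clusters. Cluster 4 had the highest granulosa-like Ptch1 in all 4 libraries (1.05, 0.649, 1.05 and 1.24, against 0.532 to 0.677 in the other granulosa-like clusters). It held 8 of 8 granulosa markers, none of them among its 10 leading genes.

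In the stroma, Ptch1 was highest in the fibroblast-like clusters led by Mfap4 (cluster 6, 8654 cells; 3.60, 2.88, 2.996 and 2.71) and by genes of dividing cells (cluster 8, 3535 cells, where the same 11 genes summed to 32.3 to 36.0; 2.98, 2.23, 3.05 and 2.86). It was lowest in the cluster led by Ogn and Lsp1 (cluster 10, 5485 cells), at 1.35, 1.20, 1.38 and 1.403. That cluster also held the least Hhip of the fibroblast-like clusters, 0.0309 to 0.0688, and had the highest Smo in 3 of 4 libraries, 1.38 to 1.49. Gli3 was higher in the dividing cluster 8 (0.336 to 0.389) than in cluster 6 (0.213 to 0.228) in every library. The clusters were defined on the same cells, so these differences are descriptions; the members were kept out of the genes used for clustering.

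**Figure D2:**
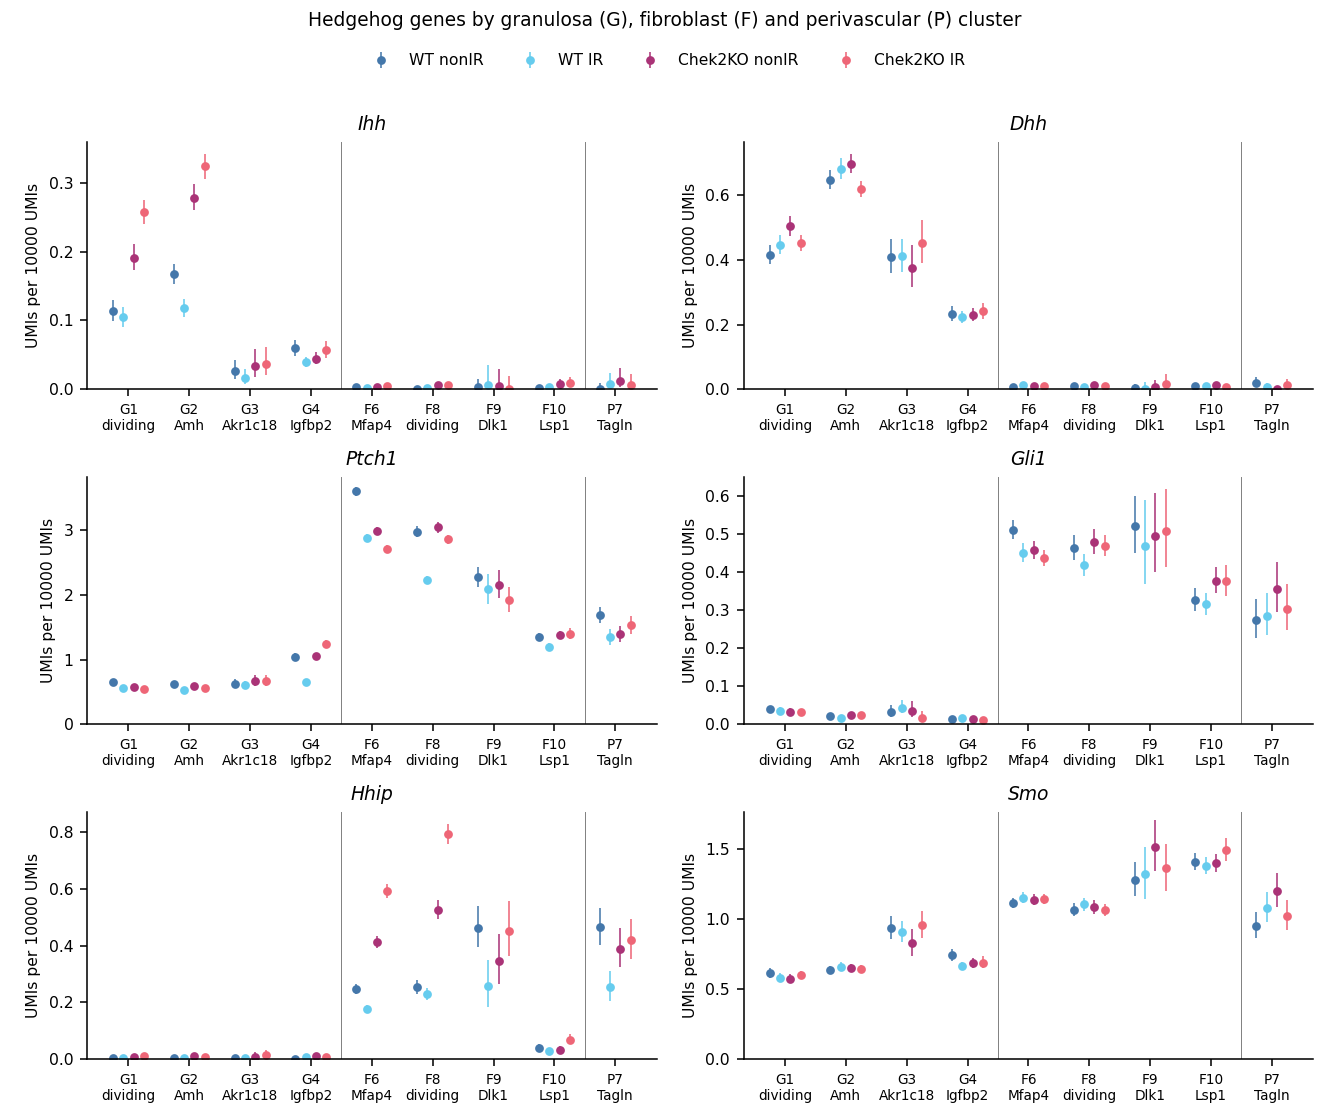
UMIs per 10000 of 6 members in 9 clusters, 1 point per single-cell library with the exact Poisson 95% interval (counting error only). G marks granulosa-like, F fibroblast-like and P perivascular smooth muscle-like clusters. Each carries a leading gene, except clusters 1 and 8, which are marked as dividing. Amh led cluster 1 as well as cluster 2. Dhh in the cluster marked Amh (G2) lies between 0.618 and 0.698 and in the cluster marked Igfbp2 (G4) between 0.223 and 0.240.

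Genes whose levels followed those of a member most closely were found over 53 sums of cells (cluster by library, at least 50 cells each) among 14401 genes, by Pearson correlation on the log2(UMIs per 10000 + 0.01) scale. These sums share libraries and clusters, so the values are descriptions with no test. The closest genes were Apoa4 (0.960), Apoc3 (0.959) and 2310020H05Rik (0.953) for Ihh, and Nr5a2 (0.975), Slc18a2 (0.968) and Dok7 (0.962) for Dhh. For the targets they were Htra3 (0.897) and Frrs1l (0.888) for Ptch1, Col1a2 (0.974), Dnm3os (0.972) and Kcnip3 (0.969) for Gli1, and Rbp4 (0.907), Adam23 (0.903) and Lmntd1 (0.900) for Hhip. Smo was closest to Pgghg (0.970), Nenf (0.967) and Trip6 (0.958), Gli2 to 6030408B16Rik (0.919), Mfap2 (0.917) and Hsd11b2 (0.894), and Gli3 to Dzip1l (0.873), Fgd1 (0.820) and L3hypdh (0.818). Between members, the values were 0.848 for Ihh and Dhh, 0.815 for Ptch1 and Gli1, 0.848 for Ptch1 and Gli2, and 0.840 for Ptch1 and Hhip. Ligand and target genes had negative values, from -0.66 for Dhh and Gli1, -0.56 for Dhh and Hhip and -0.48 for Ihh and Gli1 to -0.36 for Dhh and Ptch1 and -0.22 for Ihh and Ptch1.

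Other genes of the pathway are listed by step. Of the 15700 genes with at least 100 UMIs, 49.1% were higher in granulosa-like cells in all 4 libraries and 34.6% were lower. No list was tested against these shares. Of the 5 genes for ligand release, 4 were higher in granulosa-like cells in all 4 libraries. Scube1 (ratio 6.24) and Disp1 (2.20), which release ligand from the producing cell, led these, with Scube3 at 1.87. Hhat, the enzyme that attaches palmitate to the ligand, was at 1.11 (range 1.02 to 1.15). Scube2 was the exception at 0.0234. Of the 6 receptor-side genes, 5 had at least 100 UMIs and all 5 were lower in granulosa-like cells in all 4 libraries, among them Gpc3 (0.0323), Boc (0.133), Gas1 (0.136) and Cdon (0.625). Boc, Gas1 and Cdon encode coreceptors. Among 23 signal transduction genes, 7 were higher and 13 lower in all 4 libraries, with Evc2 (1.74) near the top and, at the low end, Sufu (0.487), the inhibitor that holds GLI proteins, and Evc (0.244). Among 6 ciliary transport genes, 2 were higher (Ift88 1.35 and Dync2h1 1.14) and 2 lower (Arl13b 0.595 and Ift80 0.840). Of 8 target genes with enough UMIs, 2 were higher (Ccnd2 4.81 and Jag2 2.17) and 5 lower, with Sfrp1 (0.0340) and Snai1 (0.0526) lowest. Shh, the third ligand gene, had 3 UMIs in all granulosa-like cells and 0 in fibroblast-like cells.

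Theca genes were described by the same ratio. Of 7 steroidogenic genes, 6 had at least 100 UMIs in the 2 classes; Hsd3b1 (18.7, range 6.46 to 27.5) and Nr5a1 (1.45) were higher in granulosa-like cells in all 4 libraries, and Cyp17a1 (2.87), Cyp11a1 (1.51), Star (1.12) and Lhcgr (0.702) had ratios on both sides of 1. Insl3, a theca and Leydig cell hormone gene, had 46 UMIs in fibroblast-like and 7 in granulosa-like cells. Cyp17a1, needed for androgen synthesis, was seen in 5, 3, 17 and 17 fibroblast-like cells of the 4 libraries, with 39, 3, 99 and 455 UMIs, and Cyp11a1 in 14, 11, 63 and 84 cells.

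Between the single-cell libraries, granulosa-like Ihh differed by up to 3.03-fold between genotypes and fibroblast-like Hhip by up to 3.64-fold. Granulosa-like Ihh in the WT IR library was 0.691-fold the WT nonIR level (95% counting interval 0.622 to 0.767), and in Chek2-/- the IR library was 1.35-fold the nonIR library (1.26 to 1.45). Chek2-/- over WT was 1.55 without IR (1.42 to 1.69) and 3.03 with IR (2.77 to 3.32). The order of the libraries was the same within clusters 1 and 2, but not in cluster 4. Cluster 3 had the same order on 10 to 15 Ihh UMIs per library, too few to rank the libraries. Amh in cluster 2 moved in the same order, at 4.38, 4.13, 6.96 and 7.60 UMIs per 10000. Dhh in the same cells differed little, with ratios of 0.960 (0.916 to 1.01) and 0.973 (0.931 to 1.02) for IR over nonIR in WT and Chek2-/- and 1.08 (1.03 to 1.13) for Chek2-/- over WT without IR. Each library is 1 pool of 4 females, so these intervals cover counting error only, and no difference between conditions was tested. The share of granulosa-like cells in cluster 2 was 41.9, 35.8, 40.8 and 45.6%, and in WT IR cluster 4 held slightly more cells (36.0%) than cluster 2.

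Fibroblast-like Hhip stood at 0.217, 0.162, 0.366 and 0.590 UMIs per 10000. IR over nonIR was 0.749 (0.691 to 0.811) in WT and 1.61 (1.53 to 1.69) in Chek2-/-, and Chek2-/- over WT was 1.69 (1.58 to 1.81) without IR and 3.64 (3.40 to 3.89) with IR. The cells with at least 5 Hhip UMIs numbered 84, 58, 155 and 272 in the 4 libraries. The order held within clusters 6 (0.247, 0.177, 0.413 and 0.592) and 8 (0.253, 0.229, 0.527 and 0.792) but not in cluster 9 (0.463, 0.257, 0.345 and 0.452), nor in the perivascular smooth muscle-like cluster (0.465, 0.254, 0.389 and 0.419). With finer clustering (resolution 1) the genotypes were spread unevenly over fibroblast-like clusters: one with mean Hhip of 0.539 held 558, 580, 1295 and 1160 cells of the 4 libraries, and one with mean Hhip of 0.103 held 1405, 1270, 583 and 722. Within the first, Hhip stood at 0.484, 0.356, 0.515 and 0.801, and within the second at 0.128, 0.0801, 0.0824 and 0.121. In 3 other fibroblast-like clusters Hhip stood at 0.318, 0.235, 0.677 and 0.945 in one with 391, 408, 413 and 510 cells, at 0.229, 0.242, 0.404 and 0.613 in another, and at 0.148, 0.106, 0.313 and 0.592 in the last. Both Chek2-/- libraries were above both WT libraries in these 3 and in the first, but not in the second or in the remaining 2 (0.389, 0.271, 0.268 and 0.444, and 0.0328, 0.0141, 0.0232 and 0.0322). Hsd3b1 in fibroblast-like cells moved in the same order (0.239, 0.224, 0.604 and 1.07), while in granulosa-like cells it stood at 6.59, 6.09, 6.14 and 6.90; its part in the Hhip result was not tested. In bulk ovaries, Hhip changed with IR by -0.34 on the log2 scale in WT and by -0.16 in Chek2-/-. Between nonIR genotypes it differed by -0.28, or -0.02 without Chek2-/- replicate 6. Bulk means with IR were 0.816 (WT) and 0.763 (Chek2-/-) CPM per kilobase of exon. The bulk errors were wide (below), and the difference between assays was not tested. Ptch1 in the WT IR library was 0.791-fold the nonIR level in fibroblast-like cells (0.774 to 0.808) and 0.795-fold in granulosa-like cells (0.765 to 0.827), against 0.967 (0.947 to 0.988) and 0.940 (0.906 to 0.975) in Chek2-/-. Gli1 in fibroblast-like cells had ratios of 0.893 (0.847 to 0.940) in WT and 0.985 in Chek2-/-. Smo in fibroblast-like cells was even across libraries, at 1.17, 1.19, 1.19 and 1.17.

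In whole ovaries the members' levels per kilobase of exon in WT nonIR ovaries were, as CPM per kilobase, 29.0 for Smo, 17.5 for Ptch1, 15.7 for Gli1, 6.20 for Gli2, 5.84 for Ihh, 4.48 for Gli3, 1.35 for Dhh and 1.03 for Hhip. In bulk ovaries, fewer cells of a type and less RNA per cell cannot be told apart. Fibroblast marker sums had a median of 4826 CPM in WT nonIR and 4051 CPM in Chek2-/- nonIR ovaries, and 4856 and 4049 CPM with IR.

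No member passed the test with IR in WT ovaries or in Chek2-/- ovaries. In the WT comparison 2.41% of the 26790 genes tested passed an adjusted p of 0.05 in the edgeR quasi-likelihood test, and 0 of 8 members did (also 0 at an unadjusted p under 0.05, which 11.4% of genes reached, and 0 by DESeq2); 1.08% of genes also changed by 2-fold, and 2.56% had groups that did not overlap, with 0 of 8 members in either. In the Chek2-/- comparison 0.0112% of genes passed, and again 0 of 8 members, with none at an unadjusted p under 0.05 (4.4% of genes) and 0 by DESeq2; 0.00373% of genes also changed by 2-fold and 0.149% did not overlap, again with 0 of 8 members. Without Chek2-/- replicate 6 the shares of genes called were 3.81% and 0.0113%, and 0 of 8 members were called in either. For Ihh the lowest, median and highest CPM were 13.3, 17.9 and 21.5 in WT nonIR, 12.3, 17.9 and 20.8 in WT IR, 5.61, 18.1 and 21.2 in Chek2-/- nonIR and 4.97, 20.2 and 24.6 in Chek2-/- IR. The 2 lowest Ihh values were those of Chek2-/- replicate 6, and otherwise the groups overlapped throughout. The log2 fold change of Ihh with IR was -0.04 (SE 0.29) in WT and 0.13 (SE 0.29) in Chek2-/-.

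Ptch1 stood at 177, 256 and 303 CPM (lowest, median, highest) in WT nonIR, 193, 223 and 291 in WT IR, 127, 211 and 246 in Chek2-/- nonIR and 152, 222 and 281 in Chek2-/- IR. With IR in WT the difference was -0.11 on the log2 scale (SE 0.15, adjusted p = 0.893). Gli1 stood at 51.4, 85.2 and 92.01 CPM in WT nonIR and 60.3, 80.1 and 86.0 in WT IR, or -0.05 on the log2 scale (SE 0.15, adjusted p = 0.969). Hhip had the widest error, at -0.34 on the log2 scale (95% interval -1.48 to 0.79, adjusted p = 0.928), so a change of 2-fold was within the interval; the SE was 0.58, and 0.30 without Chek2-/- replicate 6. The other WT fold changes lay between -0.09 (Gli2) and 0.02 (Dhh). All 8 members had a negative log2 interaction estimate (IR effect in WT minus that in Chek2-/-), with a median of -0.14 against -0.005 over all genes, but 0 passed the test, against 1.03% of genes (0.34% lower, and 1.31% in either direction without Chek2-/- replicate 6). The share of all genes with a negative estimate is not given. Several members varied together across these libraries (below), so the 8 signs are not separate observations. The estimate turned positive in 1, 7 and 2 of 34 alternative settings for Ihh, Dhh and Hhip. No member reached an unadjusted p under 0.05 (9.14% of genes), and 0 passed by DESeq2. The largest interaction beside its error was that of Gli2, -0.22 (SE 0.12, adjusted p = 0.641).

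**Figure D3:**
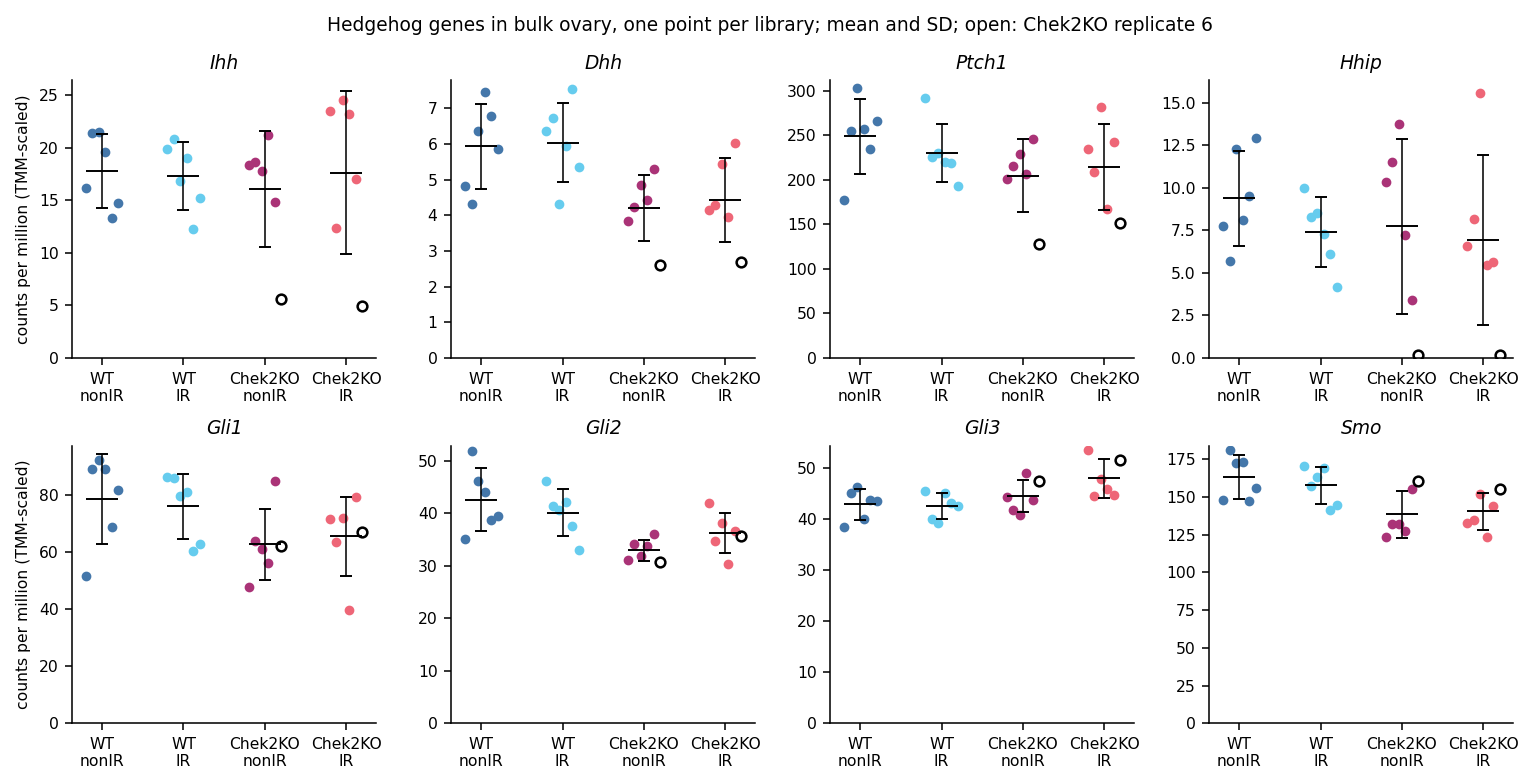
CPM of each member in the 24 bulk libraries by group, with the mean and SD of 6; open circles mark Chek2-/- replicate 6 (Chek2KO in the plot is Chek2-/-). The groups overlap for all members, and replicate 6 holds the 2 lowest Hhip values, 0.154 and 0.152 CPM.

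Without IR, 1 of 8 members passed the edgeR test between genotypes, against 5.34% of genes in either direction and 2.22% lower. DESeq2 called 3 of 8 (Gli2, Smo and Dhh), and 2507 of the 26790 genes. Gli2 stood at 35.2, 41.8 and 51.8 CPM (lowest, median, highest) in WT nonIR and at 30.7, 32.8 and 36.0 CPM in Chek2-/- nonIR, and the groups overlapped in part of this range. Its group means were 42.6 ± 6.00 and 32.9 ± 2.04 CPM (SD, n = 6), and the difference was -0.37 on the log2 scale (SE 0.087, adjusted p = 0.0162, edgeR), or -0.35 (adjusted p = 0.0249) without Chek2-/- replicate 6. The call was lost without WT nonIR replicate 2 (adjusted p = 0.0508). Without replicate 6, 7.09% of genes and 2 of 8 members (Gli2 and Smo) passed. With IR, the Gli2 means were 40.1 ± 4.46 CPM in WT and 36.2 ± 3.85 CPM in Chek2-/- (SD, n = 6). In the single-cell libraries the nonIR ratio of Chek2-/- over WT for Gli2 was 0.963 (95% counting interval 0.899 to 1.03) in fibroblast-like cells and 0.840 (0.760 to 0.928) in granulosa-like cells. Of 7 fibroblast markers, 2 passed the same bulk test as lower in Chek2-/-, and of 8 granulosa markers none did, with 5 at an unadjusted p under 0.05 and 3 called by DESeq2; their part in the Gli2 result was not tested.

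Smo was the next nearest to the threshold. It stood at 147, 164 and 181 CPM in WT nonIR and at 123, 132 and 160 CPM in Chek2-/- nonIR, which is -0.24 on the log2 scale (SE 0.074, adjusted p = 0.0613), or -0.28 (SE 0.070, adjusted p = 0.0185) without Chek2-/- replicate 6. It also passed without WT nonIR replicate 5 (adjusted p = 0.0393), Chek2-/- nonIR replicate 5 (0.0375) or Chek2-/- nonIR replicate 6 alone (0.0315). The 2 groups overlapped between 147 and 160 CPM. In the single-cell libraries the same ratio for Smo was 1.01 (0.980 to 1.04) in fibroblast-like and 0.953 (0.915 to 0.991) in granulosa-like cells. Dhh stood at 4.32, 6.11 and 7.45 CPM in WT nonIR and at 2.61, 4.34 and 5.29 CPM in Chek2-/- nonIR, which is -0.50 on the log2 scale (SE 0.18, adjusted p = 0.113), beside a granulosa-like single-cell ratio of 1.08. Without Chek2-/- replicate 6 the Dhh difference was -0.39 (SE 0.15, adjusted p = 0.125, edgeR).

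Values for the remaining members were -0.33 (SE 0.15, adjusted p = 0.219) for Gli1, -0.28 (SE 0.15, adjusted p = 0.283) for Ptch1, -0.14 (95% interval -0.70 to 0.42, adjusted p = 0.837) for Ihh, beside a granulosa-like single-cell ratio of 1.55, and 0.05 (adjusted p = 0.650) for Gli3. Without Chek2-/- replicate 6 they were -0.32 for Gli1, -0.18 for Ptch1, 0.03 (SE 0.16) for Ihh and 0.04 for Gli3. Hhip, at -0.28 (95% interval -1.41 to 0.85), was -0.02 without Chek2-/- replicate 6, where it stood at 0.154 (nonIR) and 0.152 CPM (IR) against 3.38 to 15.6 CPM in the other Chek2-/- libraries. An unadjusted p under 0.05 was reached by 4 of 8 members (Gli2, Smo, Dhh and Gli1) and by 21.6% of genes. Without Chek2-/- replicate 6, Gli1 no longer reached it (unadjusted p = 0.0640, edgeR). The median of the 8 log2 fold changes was -0.28, against 0.01 over all genes. Because several members varied together across libraries (below), the 8 values are not separate observations. For no member were the groups fully separated, against 3.22% of genes.

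**Figure D4:**
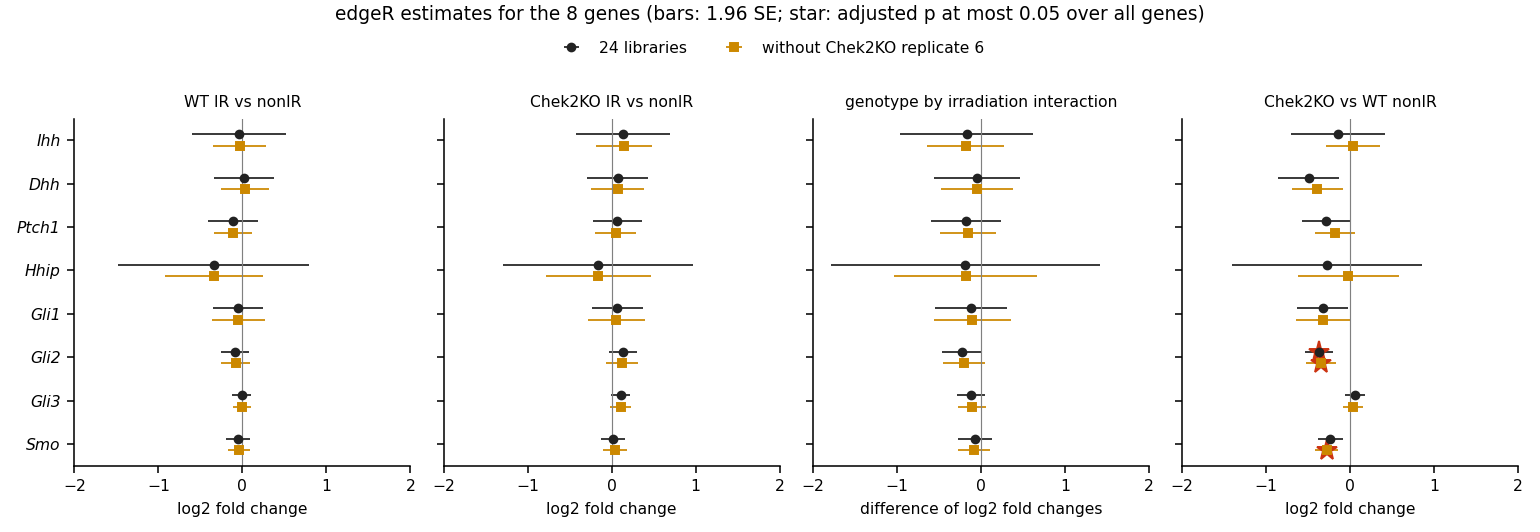
log2 fold change of each member in the 4 bulk comparisons from edgeR, with bars for the 95% interval from the SE, for all 24 libraries and without Chek2-/- replicate 6; a star marks an adjusted p of at most 0.05. Gli2 is starred between genotypes in both fits (-0.37 and -0.35) and Smo without replicate 6 only (-0.28).

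Among 51 other Hedgehog genes, 1 was higher and 1 lower with IR in WT ovaries (1.53% and 0.885% of all genes were; DESeq2 called 1 of the 51), and none passed in Chek2-/- ovaries or for the interaction, by edgeR or DESeq2, where 1 and 6 of the 51 had an unadjusted p under 0.05. Hhat fell from 31.7, 34.0 and 36.9 CPM (lowest, median, highest) to 26.6, 27.6 and 30.5 CPM, with no overlap (log2 fold change -0.28, SE 0.068, adjusted p = 0.0227). The call held in 17 of 23 alternative settings; it was lost with a minimum of 2-fold and without WT nonIR replicates 4 or 5 or WT IR replicates 1, 2 or 3, when the adjusted p was between 0.0523 and 0.0813. Foxf2, a forkhead factor gene and Hedgehog target, was higher by 1.61 on the log2 scale (adjusted p = 0.0479) on 1 to 4 counts per library in WT nonIR and 4 to 12 in WT IR, and passed in 8 of 22 alternative settings; leaving out any 1 WT library other than nonIR replicate 3 or IR replicate 1 lost the call (adjusted p up to 0.117).

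Between nonIR genotypes, 5 of the 51 were higher in Chek2-/- ovaries by edgeR (3.12% of all genes) and 5 were lower (2.22%). DESeq2 called 15 of the 51 in all, and 2507 of the 26790 genes. Sufu stood at 67.2, 73.8 and 84.2 CPM in WT and at 50.6, 55.6 and 65.5 CPM in Chek2-/-, with no overlap (log2 fold change -0.39, SE 0.082, adjusted p = 0.00887). Stk36, the fused kinase homolog, stood at 138, 153 and 170 CPM in WT and at 72.7, 117 and 133 CPM in Chek2-/-, with no overlap (log2 fold change -0.46, adjusted p = 0.00898), or -0.37 without replicate 6. Efcab7, part of the ciliary complex that anchors EVC proteins, rose from 2.09, 2.68 and 3.66 CPM to 5.14, 5.48 and 5.67 CPM, with no overlap (log2 fold change 0.94, SE 0.12, adjusted p = 6.10e-05). These 3 genes passed in 22 of 23 alternative settings, all except the minimum of 2-fold. Those that passed in fewer of the 23 included Cul3 (log2 fold change 0.16, 21 of 23), Foxf1 (0.57, 20), Arrb1 (-0.31, 14), Iqce (-0.24, 12) and Mosmo (0.24, 11), and Lrp2 passed in 11 of 22. Foxf1 lost the call without WT nonIR replicate 4 (adjusted p = 0.0558). Arrb1 and Iqce lost it without any 1 of WT nonIR replicates 2, 3 and 4 or Chek2-/- nonIR replicates 1 to 4 (adjusted p up to 0.122 and 0.118), and Mosmo without any 1 of WT nonIR replicates 1 to 4 or Chek2-/- nonIR replicates 1, 2, 4 and 6 (up to 0.114). Lrp2, higher by 2.70 (adjusted p = 0.0353), rested on Chek2-/- nonIR replicate 6 at 44.6 CPM, and was 0.29 (adjusted p = 0.652) without that pair; it was also lost without any 1 of WT nonIR replicates 1, 2, 3, 4 and 6 (adjusted p between 0.0509 and 0.0866). Of the theca genes, Star, which brings cholesterol into the mitochondrion, was higher in Chek2-/- nonIR ovaries by 0.56 (SE 0.13, adjusted p = 0.0160) and passed in 22 of 23 alternative settings, while Cyp11a1, at 1.01, did not pass (adjusted p = 0.229).

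Members were also compared across the 24 bulk libraries, after subtraction of the group means, in 28 pairs with permutation tests (100000 permutations within groups, two-sided) and Benjamini-Hochberg adjustment over the 28. The calls and adjusted p-values given are those of Pearson r, and rho is given beside them without its own p-value. Ptch1, Smo, Gli1 and Gli2 rose and fell together in 5 of their 6 pairs. Smo and Gli1 had r = 0.76 (rho = 0.75, adjusted p = 0.000420, permutation test), Gli1 and Gli2 r = 0.79 (rho = 0.79, adjusted p = 0.000280), Ptch1 and Gli2 r = 0.65 (rho = 0.71, adjusted p = 0.00541), Ptch1 and Gli1 r = 0.59 (rho = 0.68, adjusted p = 0.0209) and Smo and Gli2 r = 0.60 (rho = 0.59, adjusted p = 0.0123). Without the 2 libraries farthest from the median of the first gene of each pair, these 5 values of r were 0.79, 0.69, 0.60, 0.62 and 0.70.

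In all, 10 of the 28 pairs passed, and 4 of these joined a ligand gene to a target gene: Ihh and Ptch1 (r = 0.66, rho = 0.52, adjusted p = 0.0226), Ihh and Hhip (r = 0.86, rho = 0.62, adjusted p = 0.0183), Dhh and Ptch1 (r = 0.70, rho = 0.59, adjusted p = 0.00829) and Dhh and Hhip (r = 0.65, rho = 0.31, adjusted p = 0.0271). The tenth was Ptch1 and Hhip (r = 0.73, rho = 0.58, adjusted p = 0.00777). Pairs of other genes were not tested, so no background share stands beside these counts. The calls of the 4 ligand pairs were lost without the 2 libraries of Chek2-/- replicate 6: r was 0.24 for Ihh and Ptch1, 0.22 for Ihh and Hhip, 0.46 for Dhh and Ptch1 (adjusted p = 0.192) and 0.09 for Dhh and Hhip. The rho of Dhh and Ptch1 was then 0.49. In those 22 libraries 6 pairs passed, all among Ptch1, Smo, Gli1 and Gli2, with r from 0.73 to 0.85. Apart from its pairs with Ptch1 and the ligand genes, Hhip passed with no member over the 24 libraries (r = -0.46 with Smo, -0.02 with Gli1 and 0.15 with Gli2), and Gli3 passed with no member (r = 0.03 with Ptch1, 0.20 with Gli1 and 0.40 with Gli2). With fibroblast and granulosa marker means regressed out over the 24 libraries, Ptch1 and Gli1 (r = 0.44) and Ptch1 and Gli2 (r = 0.46) no longer passed (both adjusted p = 0.142), and Smo and Gli1, Smo and Gli2, and Gli1 and Gli2 still did (r from 0.62 to 0.74). Gli2 and Gli3 then passed as positive (r = 0.59, adjusted p = 0.0225), while Smo and Hhip (r = -0.66, rho = -0.68, adjusted p = 0.0136, permutation test) and Gli1 and Hhip (r = -0.58, rho = -0.59, adjusted p = 0.0222) passed as negative. With replicate 6 left out and the marker means regressed out as well, only Smo and Gli1 passed (r = 0.69, adjusted p = 0.0372). Within the 12 nonIR libraries no pair passed, with 7 at an unadjusted p under 0.05, and within the 12 IR libraries 3 did. The permutations treated libraries of a group as independent and did not use the replicate number, which part of the Chek2-/- nonIR and IR libraries shared in their deviations, so the p-values over both treatments may be too small.

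**Figure D5:**
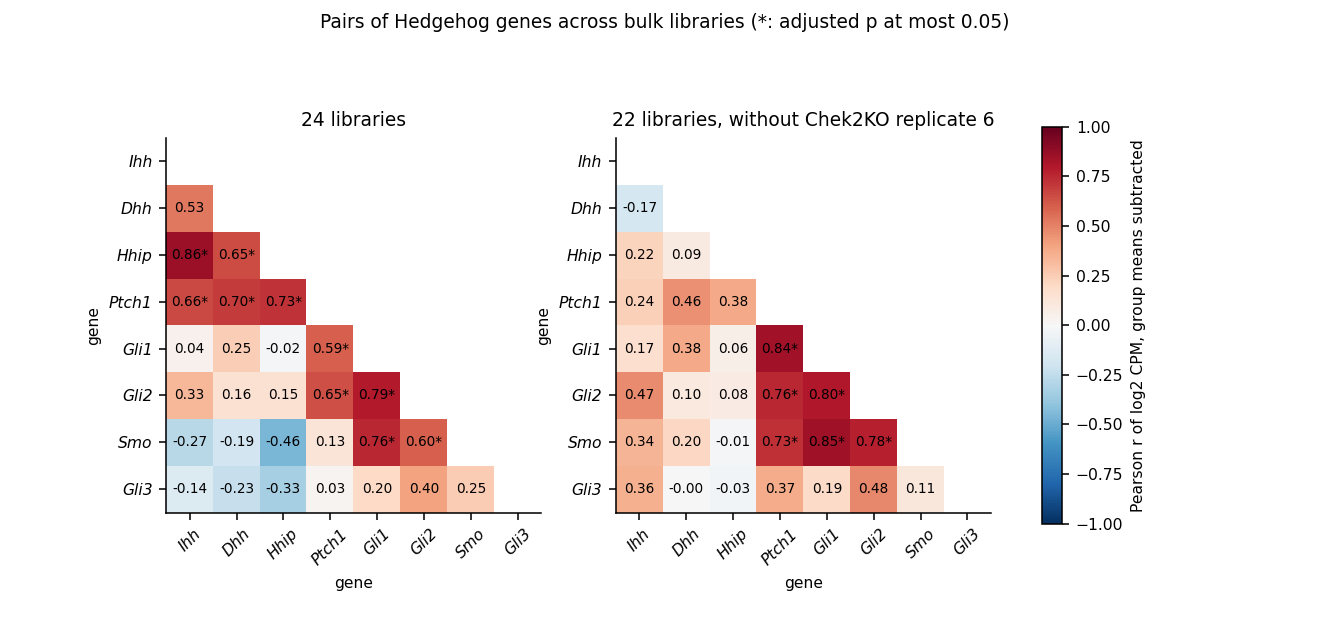
Pearson r between members across bulk libraries after subtraction of group means, for all 24 libraries and for the 22 without Chek2-/- replicate 6; a star marks an adjusted p of at most 0.05. The block of Ptch1, Smo, Gli1 and Gli2 is starred in the 22 libraries (r from 0.73 to 0.85), and no pair with a ligand gene is.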

How the data were processed

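RNA of paired ovaries was sequenced in 24 bulk libraries, and dissociated pooled ovaries in 4 droplet single-cell libraries. For bulk, the authors trimmed reads (Trim Galore 0.6.5) and quantified transcripts with Salmon 1.3.0 in the nf-core pipeline against Ensembl, and deposited estimated counts per gene, which need not be whole. For single cells, the authors aligned reads to mm10 with Cell Ranger, and the deposited matrices hold raw UMI counts per gene and cell.

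Estimated counts were rounded, and genes with at least 10 counts over the 24 libraries were kept (26790 of 44674). The test was edgeR 4.0.16 (TMM, quasi-likelihood test, 1 coefficient per group) with Benjamini-Hochberg adjustment, in R 4.3.3. A prior count of 2 was used for the log2 CPM behind the correlations, and edgeR's default for the fold changes. A call is an adjusted p of at most 0.05. Symbols were assigned to 44152 gene IDs. The statistics were tested on simulated data. Replicate libraries differed by more than counting noise (chi-square per degree of freedom 5.85 to 55.3). P-values measure the spread between these libraries, which the labels number as replicates. Alternatives were DESeq2 1.42.0, limma-voom (limma 3.58.1), other scalings and filters, a replicate block, and each library left out; leaving out both Chek2-/- replicate 6 libraries was chosen after seeing the data.

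Cells with at least 1000 genes, at most 20% mitochondrial and 50% ribosomal counts were kept, Scrublet doublets were left out (389, 566, 394 and 401), and 2000 variable genes without the Hedgehog genes, 30 principal components and 15 neighbors were clustered with scanpy 1.11.5 (Leiden, resolution 0.5). No batch correction was applied, unlike in the study. Classes were rebuilt from marker lists: a marker was held in at least 25% of cells and at 2-fold the median cluster, and a class needed 60% of its list and 3 markers in 100 cells or more. These limits were set after the clusters were seen. UMIs were summed by class and library, with 0.5 added for ratios. Counts from 3 UMIs down are at the counting floor. Intervals are 95%, exact Poisson or binomial, and cover counting error only.

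The members and gene lists were chosen with earlier results of these data known. Named were all members, other Hedgehog genes that passed a bulk test, the 2 highest and 2 lowest ratios of each list, all theca genes detected, and the 3 genes most like each member. A few genes that these rules select are not reported here.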

Additional observations from a re-analysis of the deposited data

Results flagged for a closer look

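In 84 sets of 6 libraries (each named gene in each bulk group), 6 had a library whose gap to its nearest neighbor was at least 0.625 of the whole range, and chance gives about 1 in 20. Among the members this was Ptch1 in WT IR replicate 1, at 291 CPM, with a gap of 0.625 of the range. Among the other Hedgehog genes, Lrp2 stood at 44.6 CPM and Foxf2 at 0.307 CPM in Chek2-/- nonIR replicate 6, the library low in granulosa and oocyte markers. Foxf1 stood at 2.76 CPM in WT IR replicate 1, the library that was also highest in Ptch1. Efcab7 stood at 3.48 CPM in WT IR replicate 3, and Star was lowest in Chek2-/- nonIR replicate 3, at 15.6 CPM.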

How the results depend on the processing

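The edgeR counts of genes called with IR in WT, with IR in Chek2-/-, for the interaction and between nonIR genotypes (646, 3, 277 and 1430) changed by over 1.5 times with a minimum of 2-fold (288, 1, 167 and 211) and with DESeq2 (14 in Chek2-/-, 458 for the interaction and 2507 between genotypes). With only the groups compared, 1 gene passed in Chek2-/- and 785 between genotypes. Without Chek2-/- replicate 6, 1009 passed in WT, and with the replicate block added to that, 1033 in WT and 2930 between genotypes. With single libraries left out, counts were 516 to 657, 2 to 4, 221 to 323 and 573 to 1794; the last fell to 675, 716 and 573 without WT nonIR replicates 2, 3 and 4 and to 807 without Chek2-/- nonIR replicate 1. No member passed under any setting in the first 3 comparisons. Between genotypes, members called were 3 by DESeq2 (adding Dhh, adjusted p = 0.0485, and Smo, 0.0208), 2 with edgeR's own expression filter (Smo, 0.0464), 2 with the replicate block (Dhh, 0.0480), 2 without replicate 6 and 2 with the block and without replicate 6 (Smo, 0.0152), 0 with a minimum of 2-fold, and 0 to 2 with single libraries left out (0 without WT nonIR replicate 2). Gli2 passed in 21 of 23 alternative settings, Smo in 7 and Dhh in 2. The cause of these changes was not tested.

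The replicate block changed no other member's call. Same-numbered libraries correlated at 0.048 to 0.50 between WT groups, 0.092 to 0.80 between Chek2-/- groups and -0.037 to 0.14 between nonIR genotypes, and not every library was closest to its own number.

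Pairs of members that passed numbered 10, and 6, 0, 3, 6 and 1 with marker means regressed out, in nonIR libraries, in IR libraries, without replicate 6, and without replicate 6 with markers regressed out. With markers regressed out, r turned to -0.0631 (Ihh and Ptch1), -0.12 (Dhh and Ptch1) and -0.0470 (Dhh and Hhip), and without replicate 6 as well to -0.17 and -0.14 for the latter 2.

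With doublets kept, granulosa-like to fibroblast-like ratios moved to 0.304 (Ptch1), 0.582 (Smo), 0.108 (Gli1), 0.434 (Gli2) and 0.0766 (Hhip), and granulosa-like means to 0.448 (Dhh), 0.792 (Ptch1), 0.687 (Smo), 0.0478 (Gli1), 0.218 (Gli3) and 0.0243 (Hhip). With at least 2000 genes per cell, the Gli1 ratio was 0.0537. All ratios stayed on the same side of 1. Depth limits Hhip in granulosa-like cells (28 to 91 UMIs per library) and the ligands outside them.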

Other observations

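The 2 ligand genes were ordered differently by the bulk and single-cell assays. Per kilobase of exon, bulk Ihh was 2.35 to 8.47 times Dhh (median 4.57 over 24 libraries, and 4.72 without Chek2-/- replicate 6). In granulosa-like cells, the ratio of Ihh to Dhh UMIs was 0.178 to 0.495 (median 0.302 over 4 libraries). UMI counts of the single-cell assay are not scaled by length, and the assays differ in chemistry, dissociation and age range; their part in the difference was not tested.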
